A study of Mus musculus with 6 samples.

Results

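The mitochondrial ribosomal proteins were followed in haematopoietic stem cells of mice labelled Lrg-47-/- (Lrg47_HSC, without the interferon-induced GTPase Irgm1) and of wild-type mice (WT_HSC), with 3 arrays per group. Genes were taken as members when the single symbol of a probe set in the platform table began with Mrpl or Mrps followed by a digit, and each gene was read from its probe set with the highest mean over the 6 arrays. This gave 76 of 18194 genes with a single symbol, 47 of the large subunit (Mrpl) and 29 of the small subunit (Mrps), represented by 156 probe sets of 45101. Both groups were C57BL/6 mice aged 8 to 12 weeks kept without specific pathogens, and no treatment is given in the labels for either. The bone marrow cells were sorted as the Hoechst side population with Sca-1, c-kit and lineage staining, and their RNA was amplified in 2 rounds of T7 transcription. Irgm1 itself was at 7.68, 8.58 and 7.84 in knockout-labelled replicates 1 to 3 against 8.39, 8.57 and 8.36 in wild type, with overlapping groups and a difference of −0.41 (adjusted p = 0.475, SE 0.25), which checks nothing where the deleted part is unknown. The labels give neither the deleted part of Irgm1 nor whether the arrays of a group came from separate animals or pools, so p-values measure only the spread between these arrays.

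The mitochondrial ribosome translates the few proteins encoded in mitochondrial DNA, all of them core subunits of the respiratory chain and the ATP synthase. Its proteins are encoded in the nucleus, made in the cytosol and imported, so assembly depends on matched supply of many nuclear transcripts and of ribosomal RNA made inside the organelle. By ancestry, part of the proteins are counterparts of bacterial ribosomal proteins and part are found only in mitochondrial ribosomes. Quiescent haematopoietic stem cells rely little on respiration, and mitochondrial activity is known to increase as they enter cycle.

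All 76 members were measured and 75 were bright enough to be tested, which asks for a value above the array's median on at least 3 of 6 arrays. The exception was Mrpl55, with values from 3.35 to 3.43, just above the highest bacterial control value of 3.18. Limma called 0 of the 75 members at an adjusted p under 0.05, against a background of 1.39% of 22580 probe sets tested (0.664% higher and 0.722% lower). At an unadjusted p under 0.05, 11 members were higher and 1 was lower. Those counts are 14.7% and 1.33% of the members, where the background was 7.52% higher and 8.90% lower. The smallest adjusted p among members was 0.0765, for Mrpl42.

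Differences, given as log2 values of knockout-labelled minus wild-type arrays, lay mostly above 0. Of 75 members 58 did so (77.3%), against 51.5% of all probe sets tested. The median difference of the members was 0.17, with quartiles of 0.01 and 0.33, whereas that of all probe sets tested was 0.01, with quartiles of −0.21 and 0.21. The 3 knockout-labelled arrays lay wholly above the 3 wild-type arrays for 17 members (22.7%, background 11.5%) and wholly below for 3 (4%, background 11.0%). Single differences were small. Only 1 member exceeded 1 in size and 65 lay within 0.5, and the standard error of a member's difference was 0.18 in the median. The 95% interval of the difference contained 0 for 63 members, and for 66 it lay wholly between −1 and 1, so that a 2-fold difference was outside it.

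**Figure D1:**
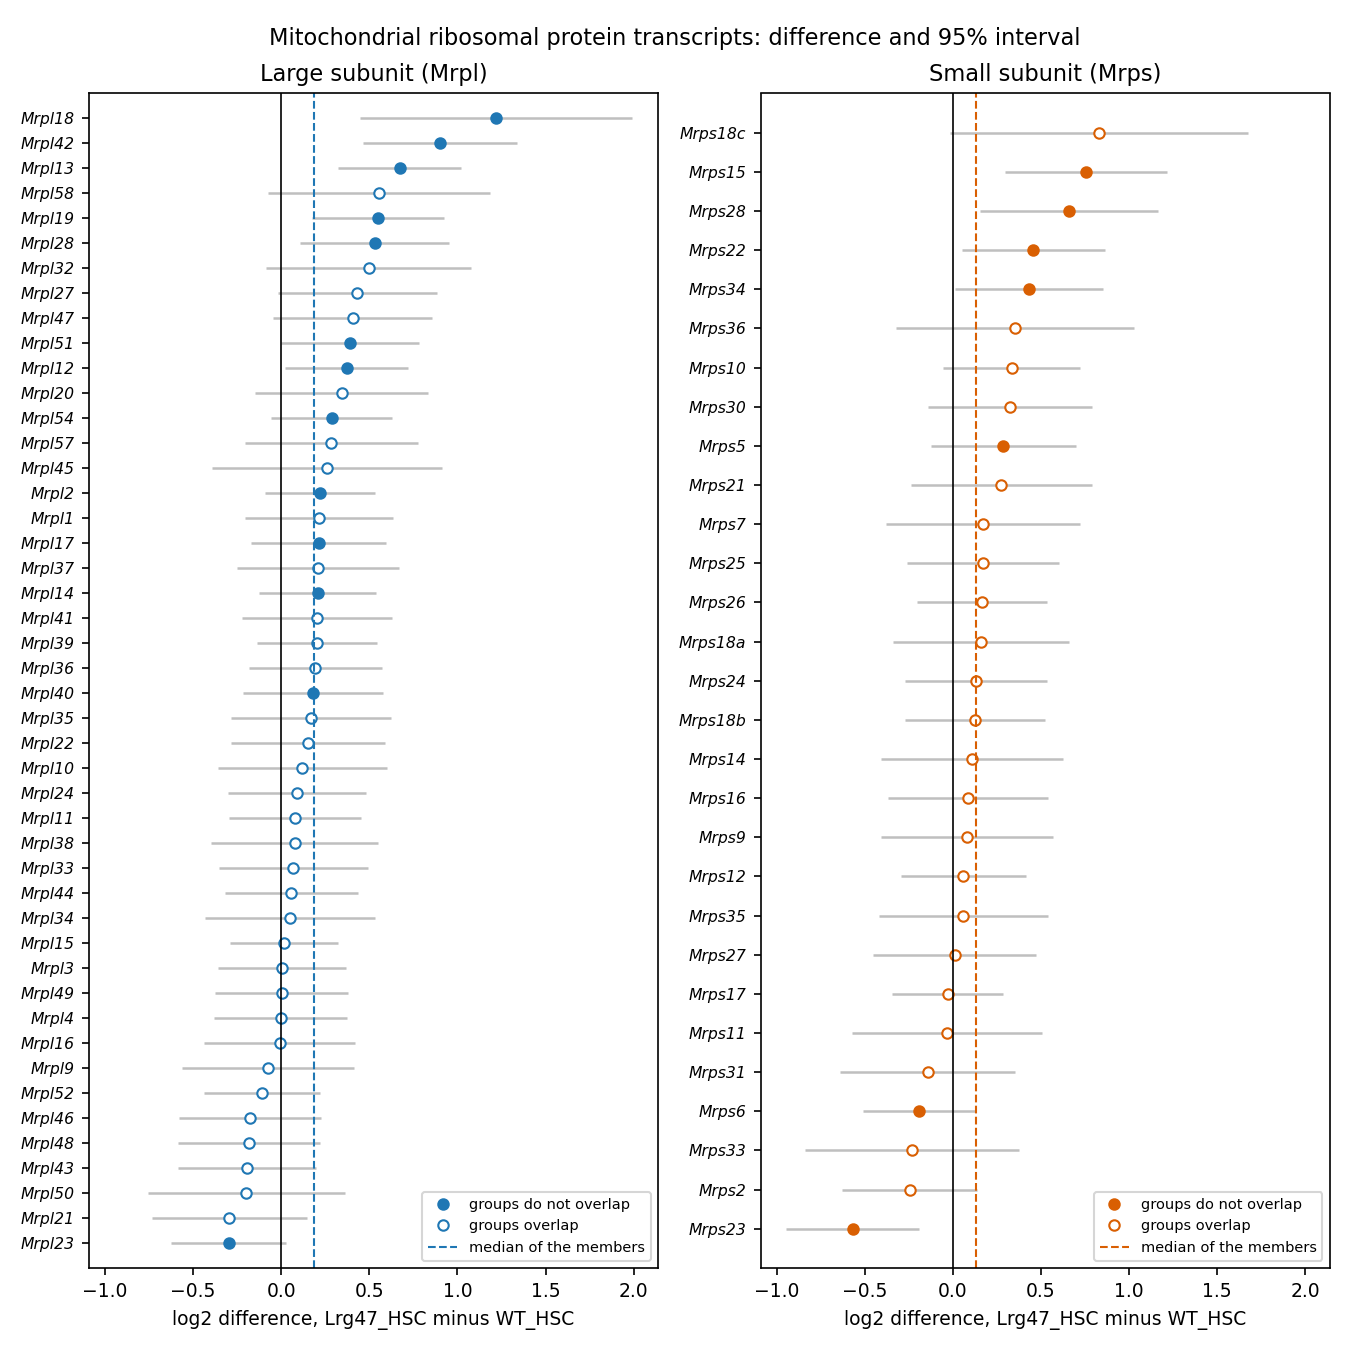
Log2 difference of each tested member (point) with its 95% interval from limma (line), for 46 large and 29 small subunit genes, with filled points where the groups do not overlap. Most points lie right of 0, and the dashed medians stand at 0.19 and 0.13.

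The medians of the large and the small subunit lay close together. The median difference was 0.19 over 46 large subunit members, of which 36 lay above 0 (78.3%), and 0.13 over 29 small subunit members, of which 22 lay above 0 (75.9%). Non-overlapping groups were found for 12 large subunit members higher (26.1%) and 1 lower (2.17%). For the small subunit, 5 members were higher (17.2%) and 2 lower (6.90%). The background was 11.5% higher and 11.0% lower. The gap between the medians was 0.06. A gap of this kind taken on each array is another quantity, whose values need not average to the gap between the medians. It had a pooled standard deviation of 0.06 between arrays of a group. Taken array by array against the wild-type mean, the large subunit median minus the small subunit median was 0.02, 0.03 and −0.13 in knockout-labelled replicates 1 to 3 and −0.03, 0.00 and 0.02 in wild type. These ranges overlapped. The sign of the gap between the medians turned without wild-type replicate 2 (−0.04), without knockout-labelled replicate 1 (−0.0038) and with a filter at the 70th percentile (−0.0083).

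**Figure D2:**
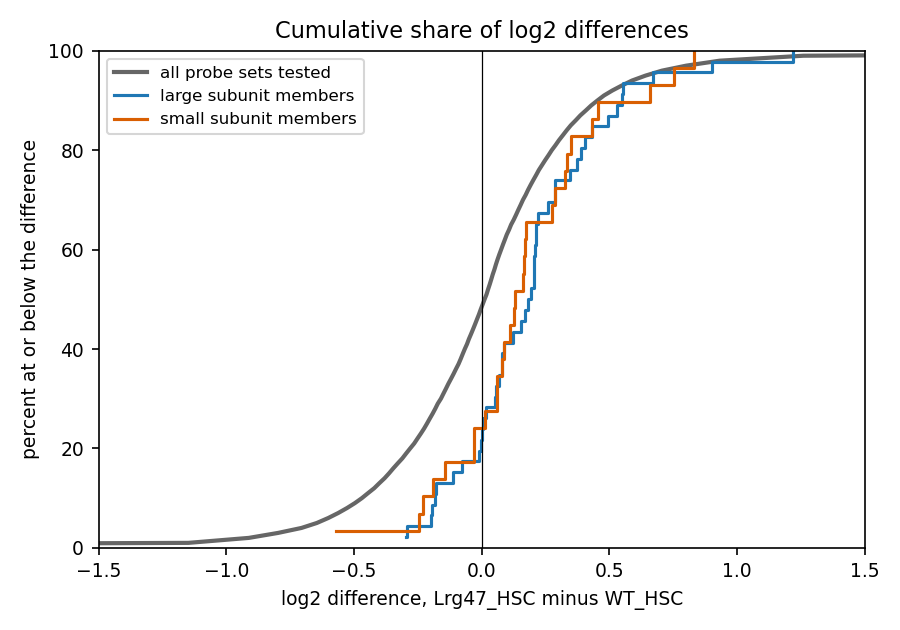
Cumulative percent of log2 differences at or below the value on the horizontal axis, for 46 large subunit members, 29 small subunit members and all 22580 probe sets tested. The curves of the subunits run close together and, up to about 0.5, to the right of the curve of all probe sets, which crosses its middle at 0.01.

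The shift was not equal on all arrays. The median deviation of the members from the wild-type mean was 0.15, 0.13 and 0.20 in knockout-labelled replicates 1 to 3 and −0.10, 0.06 and 0.03 in wild type. Wild-type replicate 1 was thus the lowest array, and it held the lowest of the 6 values for 30 of 75 members. The highest value fell on a knockout-labelled array for 13, 20 and 22 members (replicates 1, 2 and 3) and on a wild-type array for 3, 7 and 10. Without wild-type replicate 1 the median difference of the members was 0.12 and 53 of 75 lay above 0. Over the same arrays all probe sets tested had medians between −0.01 and 0.02.

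**Figure D3:**
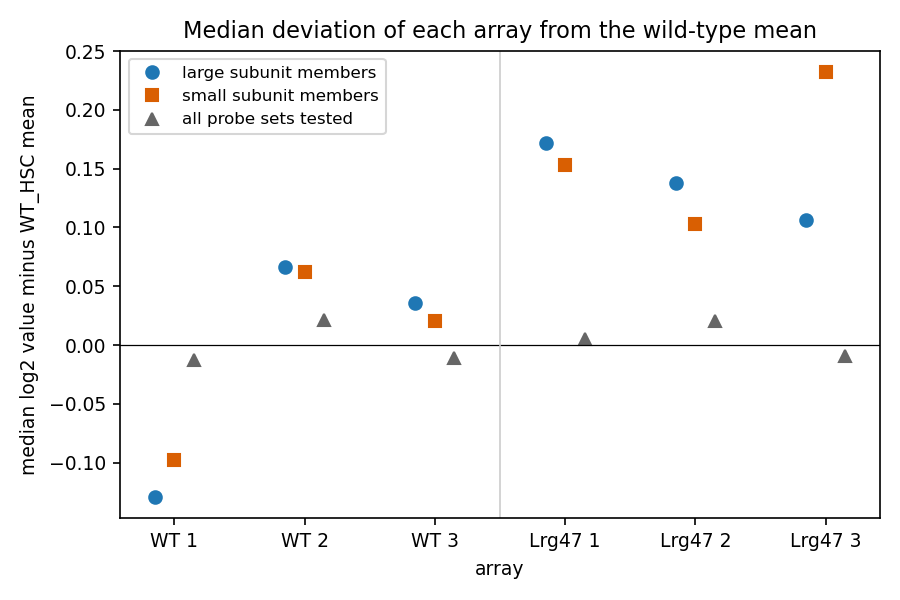
Median, over 46 large and 29 small subunit members and over all probe sets tested, of each array's log2 value minus the mean of the 3 wild-type arrays. The knockout-labelled arrays stand between 0.10 and 0.23 for the members, wild-type replicate 1 stands lowest, and all probe sets stay near 0.

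Proliferation genes, T and NK cell markers and stem cell markers separated the same groups of arrays. Over all probe sets tested, 0.664% were called higher and 0.722% lower. Of 11 tested proliferation genes 7 were called higher and 0 lower. The sum of their linear signals was 24403 to 26869 on the knockout-labelled and 13447 to 18256 on the wild-type arrays. Of 20 T and NK cell markers 11 were tested and 5 called higher, with sums of 9640 to 20671 against 698 to 1160. Cd4, Ncr1 and Zap70 stayed at or below the bacterial controls on all arrays. Without knockout-labelled replicate 3, where the T and NK sum was highest, the median of the members was 0.14 and 51 of 75 lay above 0. The T and NK sums of knockout-labelled replicates 1 and 2, at 10385 and 9640, still lay far above those of wild type. Leaving out that array therefore cannot separate the members from these markers. Of 8 stem cell markers on the arrays all were tested and 0 called, but 7 lay below 0 (median −0.35). The knockout-labelled arrays lay wholly below the wild-type arrays for 4 of these markers (background 11.0%) and wholly above for 1 (background 11.5%). Sums of the stem cell markers did not overlap, at 18071 to 21635 on the knockout-labelled and 23081 to 27599 on the wild-type arrays. The smallest p were those of Kit, Cd34 and Slamf1, at −0.82 (adjusted p = 0.195, SE 0.26), −0.59 (adjusted p = 0.135, SE 0.16) and 1.43 (adjusted p = 0.145, SE 0.39). The product of Kit, c-kit, was itself among the stains of the sort, and Slamf1 went against the 7 markers below 0. The median of this list is therefore not a measure of stem cell content. The part of proliferation genes, T and NK cell markers or stem cell markers in the shift of the members was not tested, and in sorted bulk RNA a change in the cells present and a change within cells cannot be told apart. Sums of B cell markers (138 to 151 against 147 to 219) and of erythroid markers (888 to 1062 against 725 to 920) overlapped between groups. Sums of myeloid markers (2731 to 4449 against 2416 to 3939) overlapped too, although 2 of 7 tested myeloid markers were called higher. The 7 differences ran from −1.25 to 1.80 with a median of 0.59, 5 above and 2 below 0. The part of myeloid markers in the shift of the members was not tested either. The gap between the distal and proximal actin control probe sets is a sign of transcript coverage. It ran from 2.81 to 3.56 on the knockout-labelled and from 2.57 to 3.16 on the wild-type arrays. The same gap for Gapdh ran from 2.56 to 2.94 on the knockout-labelled and from 2.72 to 3.08 on the wild-type arrays.

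Among the large subunit proteins the largest difference was that of Mrpl18, a counterpart of a bacterial protein, which lies in the central protuberance where transfer RNAs are contacted. Mrpl18 was at 8.93, 8.53 and 7.96 in knockout-labelled replicates 1 to 3 against 6.68, 7.48 and 7.61 in wild type. Its lowest knockout-labelled value, on replicate 3, lay above its highest wild-type value, also on replicate 3, and values within each group spread widely. The difference was 1.22 (adjusted p = 0.143, SE 0.33), a 2.33-fold difference with a 95% interval of 1.36 to 3.98, and did not pass. Mrpl42, a protein with no bacterial counterpart, was at 10.33, 10.50 and 10.10 in knockout-labelled replicates 1 to 3 against 9.24, 9.26 and 9.72 in wild type. The groups did not overlap, and wild-type replicate 3 lay nearest to the knockout-labelled arrays. The difference was 0.90 (adjusted p = 0.0765, SE 0.19), or 1.87-fold. It passed at the 0.05 threshold in 3 of the alternatives, each of which also called more features higher than the 0.664% given above. These were array weights (1.06, adjusted p = 0.0156, background 1.78%), a filter at the 70th percentile (adjusted p = 0.0428, background 1.41%) and a fit of gene means (adjusted p = 0.043, background 1.72%). It also passed at an adjusted p under 0.1 (background 1.39%).

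Mrpl13, a counterpart of a bacterial large subunit protein, was at 9.66, 9.74 and 9.50 in knockout-labelled replicates 1 to 3 against 8.81, 9.02 and 9.05 in wild type. The spread within each group was small (SD 0.12 and 0.13) and the groups lay clearly apart. The difference was 0.67 (adjusted p = 0.0926, SE 0.15), and 2 of its other 3 tested probe sets gave 0.69 and 0.65, the last 0.22. Mrpl13 passed with array weights (0.71, adjusted p = 0.0337). Mrpl19, whose bacterial counterpart sits at the interface of the subunits, was at 9.17, 9.32 and 9.11 in knockout-labelled replicates 1 to 3 against 8.49, 8.84 and 8.62 in wild type. All 3 knockout-labelled values exceeded the wild-type values, with a difference of 0.55 (adjusted p = 0.167, SE 0.16). Its other tested probe sets gave 0.33 and, at a low level, −0.04. Mrpl28 was at 7.73, 7.75 and 8.00 in knockout-labelled replicates 1 to 3 against 7.34, 7.45 and 7.10 in wild type. Here knockout-labelled replicate 3 was the highest array, and the difference was 0.53 (adjusted p = 0.218, SE 0.18).

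The stalk of the large subunit, which recruits the elongation factors, is formed by Mrpl10, Mrpl11 and Mrpl12. Mrpl12, the flexible stalk protein, was at 8.99, 9.09 and 8.93 in knockout-labelled replicates 1 to 3 against 8.50, 8.74 and 8.66 in wild type. The groups did not overlap and the difference was 0.37 (adjusted p = 0.28, SE 0.15). For Mrpl10 and Mrpl11 the groups overlapped, with differences of 0.12 (adjusted p = 0.821, SE 0.21) and 0.08 (adjusted p = 0.853, SE 0.16), and the 95% interval for Mrpl11 ran from −0.30 to 0.45. Proteins around the exit of the tunnel for the growing chain (Mrpl17, Mrpl22, Mrpl23, Mrpl24, Mrpl45 and Mrpl47) had differences from −0.30 to 0.41 with a median of 0.18. Mrpl23 was the large subunit member with the lowest difference, at 9.22, 9.31 and 9.38 in knockout-labelled replicates 1 to 3 against 9.66, 9.48 and 9.67 in wild type. All 3 knockout-labelled values lay below the wild-type values, by 0.30 on average (log2 difference −0.30, adjusted p = 0.342).
The 7 tested members assigned here to the central protuberance had a median of 0.18. They were Mrpl18, Mrpl27, Mrpl38, Mrpl40, Mrpl46, Mrpl48 and Mrps30, and Mrpl58 was not counted among them. Mrpl58, a relative of bacterial release factors that frees peptides from stalled ribosomes, was at 7.40, 6.94 and 7.45 in knockout-labelled replicates 1 to 3 against 6.92, 7.01 and 6.19 in wild type. Wild-type replicate 3 stood apart at the low end, the groups overlapped, and the difference was 0.56 (adjusted p = 0.358, SE 0.27). It was 0.30 without that array and 0.30 with array weights.

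Among the small subunit proteins, Mrps15, a counterpart of a bacterial protein that binds the ribosomal RNA of the small subunit, was at 10.26, 9.91 and 9.91 in knockout-labelled replicates 1 to 3 against 9.32, 9.54 and 8.95 in wild type. The groups did not overlap, and the difference was 0.75 (adjusted p = 0.132, SE 0.20), or 1.69-fold. The remaining tested probe sets of this gene gave 0.62 and −0.06. Mrps28, which occupies the place of the bacterial protein S1 in part, was at 7.72, 7.63 and 7.44 in knockout-labelled replicates 1 to 3 against 6.76, 6.73 and 7.32 in wild type. Wild-type replicate 3 approached the knockout-labelled values, and the difference was 0.66 (adjusted p = 0.204, SE 0.22). Mrps22, found only in mitochondrial ribosomes, was at 7.62, 7.82 and 7.47 in knockout-labelled replicates 1 to 3 against 7.20, 7.25 and 7.09 in wild type. Its difference was 0.46 (adjusted p = 0.26, SE 0.17), and the groups did not overlap.

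Mrps23, also without a bacterial counterpart, had the largest difference in the opposite direction. It was at 7.73, 7.77 and 7.94 in knockout-labelled replicates 1 to 3 against 8.28, 8.36 and 8.50 in wild type. All 3 knockout-labelled values lay below the wild-type values, and the spread within groups was small (SD 0.12 and 0.11). The difference was −0.57 (adjusted p = 0.155, SE 0.16), a level 1.48-fold higher in wild type, and did not pass. Its other tested probe sets gave −0.32 and −0.37. Mrps6, a counterpart of a bacterial small subunit protein, was at 9.27, 9.24 and 9.25 in knockout-labelled replicates 1 to 3 against 9.35, 9.57 and 9.41 in wild type, again with no overlap. Its difference was −0.19 (adjusted p = 0.544, SE 0.14), and the other tested probe set of the gene gave −0.04, with overlapping groups.

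**Figure D4:**
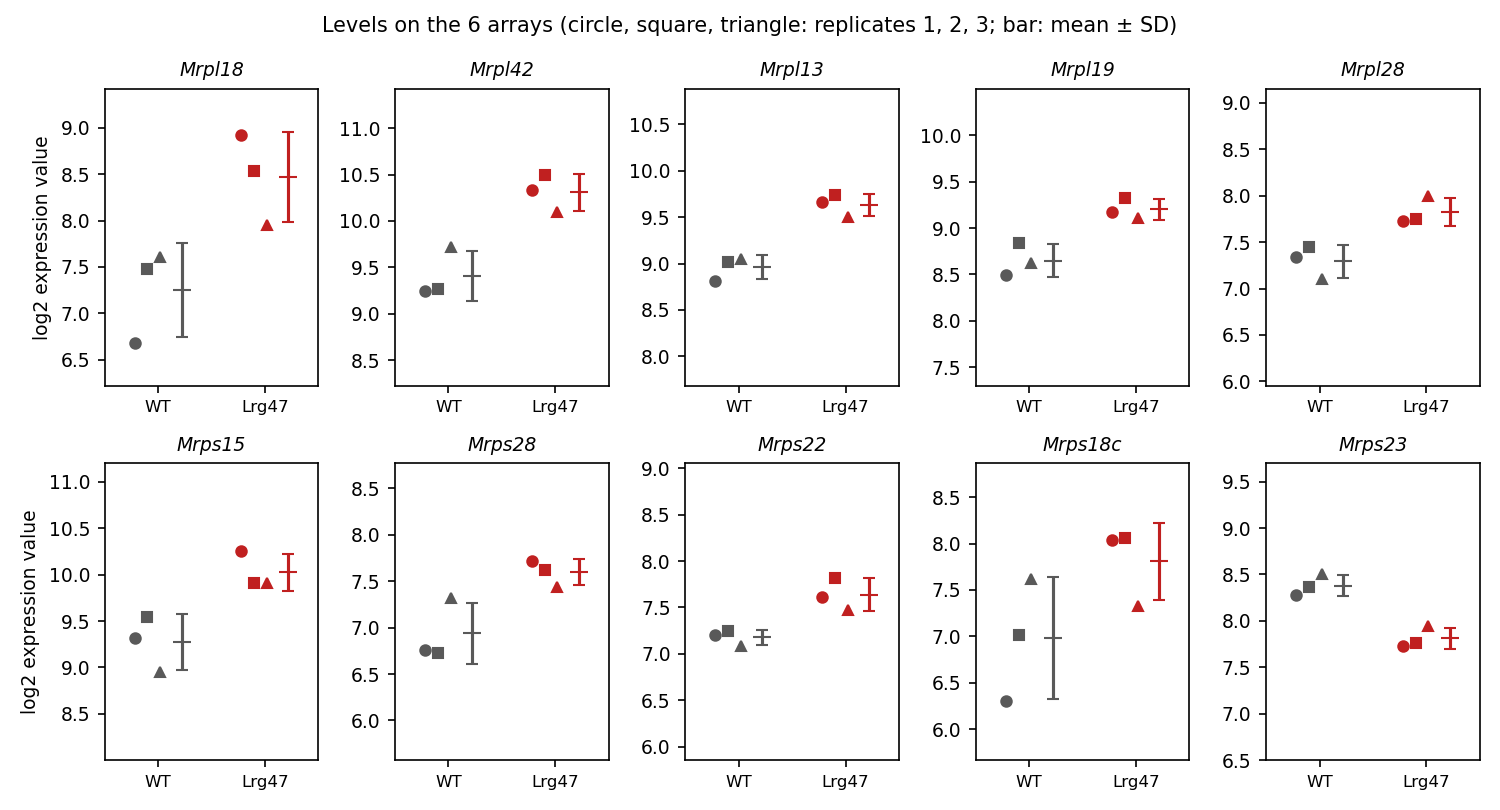
Log2 expression values of 10 members on the 6 arrays, by group and replicate, with the mean and SD of each group beside the points; every panel spans the same range of log2 units. Mrpl18 and Mrps18c spread most within a group, and Mrps23 is the panel in which the knockout-labelled arrays lie lower.

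Mammals have 3 paralogues of the bacterial small subunit protein S18, and they do not share a place in the ribosome: Mrps18c stands where the bacterial protein does, Mrps18b elsewhere in the small subunit, and Mrps18a, despite its symbol, in the large subunit. Mrps18c was at 8.03, 8.06 and 7.33 in knockout-labelled replicates 1 to 3 against 6.31, 7.01 and 7.62 in wild type. Values within each group spread by more than 0.7, wild-type replicate 3 lay above knockout-labelled replicate 3, and the difference was 0.83 (adjusted p = 0.312, SE 0.36), with a 95% interval of −0.02 to 1.68. It ranged from 0.49 without wild-type replicate 1 to 1.15 without wild-type replicate 3. Mrps18b and Mrps18a differed by 0.13 (adjusted p = 0.766, SE 0.17) and 0.16 (adjusted p = 0.76, SE 0.21), with overlapping groups. Differences between the paralogues were not tested. With Mrps18a and Mrps30 counted in the large subunit, as ribosome structures place them, and Mrps36 left out as a protein of the oxoglutarate dehydrogenase complex, the medians were 0.19 over 48 genes and 0.12 over 26.

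Counterparts of bacterial proteins and proteins particular to mitochondrial ribosomes were compared next, each classed by the position it holds, so that Mrps18a and Mrps18b stand in the mitochondrial class although they are relatives of S18. The median was 0.16 over 44 counterparts, of which 35 lay above 0, and 0.16 over 30 mitochondrial proteins, of which 22 did. In the large subunit the medians of these classes were 0.18 (28 genes) and 0.19 (20 genes), and in the small subunit 0.12 (16 genes) and 0.09 (10 genes). Member genes lie on 17 chromosomes. On chromosome 11, which also carries Irgm1, 9 of 10 tested members lay above 0, and their median was 0.16, against 0.17 for the other 65. The member nearest to Irgm1 in the gene order of assembly GRCm38.p6 was Mrpl22, with 139 protein-coding genes between them and a difference of 0.15 (adjusted p = 0.736, SE 0.19).

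Probe sets of one gene did not always give the same sign. Beside the probe set used, 29 members had 55 other tested probe sets. Limma called 0 of them (background 1.39%), and 8 had an unadjusted p under 0.05 (background 7.52% higher and 8.90% lower). Of the 55, 35 had the sign of the probe set used and 20, in 13 genes, the opposite sign. These genes were Mrpl3, Mrpl15, Mrpl19, Mrpl44, Mrpl48, Mrpl52, Mrps5, Mrps11, Mrps14, Mrps15, Mrps21, Mrps25 and Mrps31. Mrpl52 was at −0.11 by its brightest probe set and between 0.17 and 0.24 by 3 others. Those 3 were much dimmer, with knockout-labelled means of 4.16 to 6.13 against 10.28. The groups overlapped for all of them. For 3 further genes the sign was shared and the size was not. These were picked with their values in view. Mrps9 was at 0.08 by the probe set used and at 0.39, 0.40 and 0.71 by the others. Mrpl38 was at 0.08 against 0.77 by a probe set of similar brightness. Mrpl9 was at −0.08, and another probe set gave −0.68 (adjusted p = 0.0957).

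The promoters of the members were read from RefSeq (GRCm38.p6), as the 250 bases before and 50 after each gene's start, for motifs of factors known to serve nuclear genes of mitochondria. The table held 67 of 76 members. The ETS motif CCGGAAG, bound by GABP among others, was found on either strand in 25 of 67 member genes (37.3%) and in 9.93% of 27025 genes with a window of the same length. The NRF1 motif GCATGCGC was found in 8 (11.9%, all genes 3.05%), and the YY1 motif AANATGGCG in 11 (16.4%, all genes 2.76%). Matches to different motifs were allowed to overlap, and a gene with several starts counted once. The set of all genes was not matched to the members in expression or gene type. The higher shares therefore need not be particular to the members. The ETS motif stood in 14 of 41 large and 11 of 26 small subunit genes. Members with it had a median difference of 0.13 (25 tested) and members without it 0.17 (41 tested). For NRF1 the medians were 0.14 with and 0.17 without, and for YY1 0.19 and 0.13.

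The 250 bases before the start are shown for the 3 members with the largest difference, the smallest p and the lowest difference (Mrpl18, Mrpl42 and Mrps23), and for the 2 members with both an ETS and an NRF1 match there (Mrpl17 and Mrpl22). Capitals mark matches to the 3 motifs on either strand.
Mrpl18, chr17:12916092-12916341, strand minus: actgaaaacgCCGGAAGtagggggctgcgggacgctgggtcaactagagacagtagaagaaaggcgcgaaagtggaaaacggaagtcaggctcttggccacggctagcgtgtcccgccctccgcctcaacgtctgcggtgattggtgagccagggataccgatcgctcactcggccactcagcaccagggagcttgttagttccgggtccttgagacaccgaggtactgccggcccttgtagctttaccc
Mrpl42, chr10:95501950-95502199, strand minus: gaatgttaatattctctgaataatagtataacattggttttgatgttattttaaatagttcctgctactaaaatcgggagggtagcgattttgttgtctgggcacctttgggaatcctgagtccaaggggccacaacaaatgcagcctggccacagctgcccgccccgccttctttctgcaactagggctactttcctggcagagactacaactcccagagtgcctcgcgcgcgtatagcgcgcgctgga
Mrps23, chr11:88204138-88204387, strand plus: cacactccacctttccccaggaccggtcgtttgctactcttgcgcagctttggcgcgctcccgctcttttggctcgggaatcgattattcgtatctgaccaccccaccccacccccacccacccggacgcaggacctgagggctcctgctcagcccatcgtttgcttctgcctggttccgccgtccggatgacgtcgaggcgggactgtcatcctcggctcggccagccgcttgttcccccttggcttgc
Mrpl17, chr7:105811088-105811337, strand minus: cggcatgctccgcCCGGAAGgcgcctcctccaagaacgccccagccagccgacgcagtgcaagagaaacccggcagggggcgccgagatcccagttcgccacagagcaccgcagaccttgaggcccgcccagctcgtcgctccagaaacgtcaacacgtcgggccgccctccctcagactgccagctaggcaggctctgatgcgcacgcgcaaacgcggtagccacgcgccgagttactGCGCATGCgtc
Mrpl22, chr11:58171414-58171663, strand plus: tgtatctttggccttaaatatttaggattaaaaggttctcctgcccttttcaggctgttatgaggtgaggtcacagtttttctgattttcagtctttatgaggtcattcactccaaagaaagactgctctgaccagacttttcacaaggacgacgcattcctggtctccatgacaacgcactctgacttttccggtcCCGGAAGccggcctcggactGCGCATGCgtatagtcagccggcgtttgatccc
In the window of Mrpl18 an ETS match begins 240 bases before the start. Those of Mrpl42 and Mrps23 held no match before the start. In the full window each held 1 match that reached past the start, YY1 in Mrpl42 and ETS in Mrps23. In Mrpl22 an ETS match at 53 and an NRF1 match at 33 bases before the start lie close together, and in Mrpl17 they stand at 237 and 11. Mrpl17 and Mrpl22 themselves differed by 0.21 and 0.15.

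Other genes of mitochondrial translation were read from 6 lists, which also took in mitochondrial DNA maintenance and transcription and nuclear regulators of mitochondrial genes. Limma called 0 of their 80 tested genes at an adjusted p under 0.05, where the background was 1.39%. Of 4 further subunits whose symbols do not begin with Mrp, 3 lay above 0 (median 0.20). Gadd45gip1, a large subunit protein near the tunnel exit, was at 7.91, 7.76 and 7.64 in knockout-labelled replicates 1 to 3 against 7.15, 7.37 and 7.15 in wild type, with a difference of 0.55 (adjusted p = 0.191, SE 0.17). Chchd1 and Ptcd3, both of the small subunit, differed by 0.37 and 0.04. Of 22 assembly factors 14 lay above 0 (median 0.14). Noa1, a GTPase of small subunit assembly, was at 6.81, 7.08 and 7.44 in knockout-labelled replicates 1 to 3 against 6.50, 5.92 and 6.12 in wild type. Its groups did not overlap and the difference was 0.93 (adjusted p = 0.127, SE 0.24). Trub2 and Fastkd2, which act on the large subunit's ribosomal RNA, differed by 0.59 (adjusted p = 0.262, SE 0.23) and 0.56 (adjusted p = 0.244, SE 0.21).

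Of 13 translation factors 10 lay above 0 (median 0.12). The elongation factor gene Gfm1 was at 7.20, 7.49 and 7.65 in knockout-labelled replicates 1 to 3 against 6.96, 6.79 and 6.60 in wild type, a difference of 0.66 (adjusted p = 0.175, SE 0.20), and the initiation factor gene Mtif2 differed by 0.48 (adjusted p = 0.302, SE 0.21). Guf1, a relative of the bacterial back-translocating factor LepA, went the other way, at 7.61, 8.13 and 8.46 in knockout-labelled replicates 1 to 3 against 8.73, 8.79 and 8.86 in wild type. All its knockout-labelled values lay below the wild-type values, with a difference of −0.73 (adjusted p = 0.195, SE 0.23). Among 16 mitochondrial aminoacyl-tRNA synthetases 12 lay above 0 (median 0.08), and Tars2, Wars2 and Yars2, with the smallest p, differed by 0.36, −0.48 and 0.30. Among 15 genes of mitochondrial DNA maintenance and transcription 5 lay above 0 (median −0.11), Top1mt, Tfb2m and Mterf1a being at 0.33, −0.22 and 0.19. Of 10 nuclear regulators 7 lay above 0 (median 0.02). Gabpa, the DNA-binding subunit of GABP, was at 9.85, 9.99 and 9.76 in knockout-labelled replicates 1 to 3 against 9.36, 9.47 and 9.61 in wild type, a difference of 0.39 (adjusted p = 0.253, SE 0.14). The coactivator genes Ppargc1b and Ppargc1a differed by 0.52 (adjusted p = 0.235, SE 0.18) and −0.89 (adjusted p = 0.3, SE 0.37).

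Among subunits of oxidative phosphorylation encoded in the nucleus, 57 of 73 tested lay above 0 (background 51.5%), with a median of 0.21 and 0 called (background 1.39%). The smallest p were those of Atp5pb, Ndufs8 and Cox6a1, at 0.46 (adjusted p = 0.112, SE 0.11), 0.65 (adjusted p = 0.129, SE 0.17) and 0.32 (adjusted p = 0.199, SE 0.10). The only transcript of the mitochondrial genome with a named probe set, ND5, differed by −0.04 (adjusted p = 0.941, SE 0.19), with overlapping groups. Proteins of the cytosolic ribosome were read beside them. Of 48 tested genes with a single symbol 28 lay above 0, with a median of 0.03 and 0 called, and Rpl35, Rps29 and Rps27l had the smallest p, at 0.57 (adjusted p = 0.0664, SE 0.11), 0.24 (adjusted p = 0.17, SE 0.07) and 0.51 (adjusted p = 0.248, SE 0.19). The gap between cytosolic and mitochondrial ribosomal proteins was not tested. Of these 48 genes 25 had a mean above 14 (log2), which only 0.740% of all probe sets tested had, and Rpl13a was at 15.98 to 16.00 on all arrays, where the highest values of the arrays were 16.11 to 16.48. For a gene so close to the top of the range, a difference near 0 does not show that the RNA was equal. Whether the level bears on the median of the list was not tested.

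**Figure D5:**
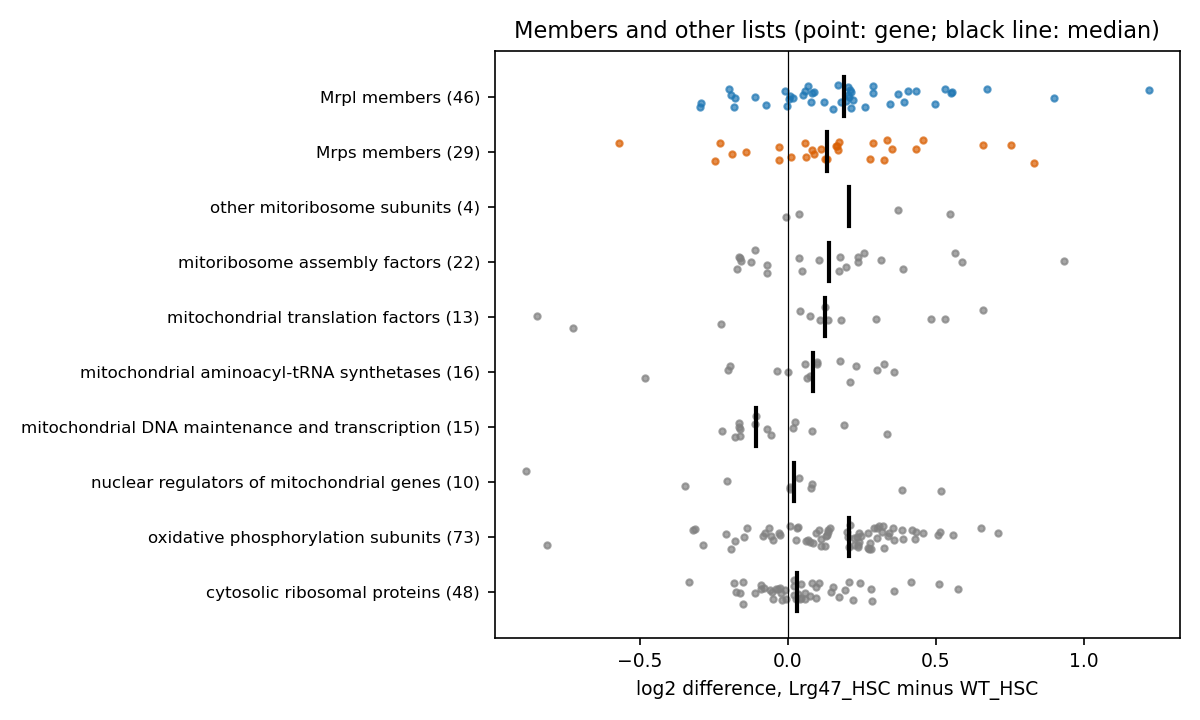
Log2 difference of each tested gene (point) in the members and 8 other lists, with the number of genes in brackets and the median as a black line; vertical scatter within a row has no meaning. The medians range from −0.11 for mitochondrial DNA maintenance and transcription to 0.21 for oxidative phosphorylation.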

How the data were processed

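RNA of sorted stem cells was hybridised to 6 arrays, 3 per group. The deposited values are log2 expression values per probe set, made by the authors with GCRMA per the submitters' processing notes; its version is not given in the sources used here. The log2 scale follows from the range of the values, which were used as deposited. Of 45101 probe sets 34958 had 1 gene symbol, 932 several and 9211 none, and 4 probe sets that name a member beside another gene were not used.

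The comparison used limma 3.58.1 (R 4.3.3; lmFit, eBayes with intensity trend, 2-sided, Benjamini-Hochberg over all 22580 probe sets tested); every adjusted p is from it. Probe sets were tested when above the array's median on at least 3 of 6 arrays and not a control. No set test was run. The number of arrays limits the precision.

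Named genes were Irgm1, members past the threshold, up to 8 non-overlapping members per direction with the largest differences, the 4 smallest p per subunit, the S18 paralogues, the stalk, Mrpl58, members whose probe sets differ in sign, and up to 3 genes per list. Members and lists were chosen with earlier results of these data known. Alternatives were other filters, normalisations, variance models, array weights, a replicate block, leaving out each array, and other choices of probe set, threshold and subunit.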

Additional observations from a re-analysis of the deposited data

How the results depend on the processing

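The median difference of large and of small subunit members stayed above 0 in the 15 alternatives that could move it; no intensity trend, robust variances and the replicate block leave it as it is by construction. With 1 array left out it ranged from 0.14 to 0.19 for the large and from 0.086 to 0.21 for the small subunit, the latter highest without wild-type replicate 2. The gap between the subunit medians ranged from −0.044 to 0.082 with 1 array left out and was −0.0083 with a filter at the 70th percentile. Members called higher numbered 1 with that filter (Mrpl42; background 1.41%), 1 in the fit of gene means (Mrpl42; background 1.72%), 2 with array weights (Mrpl13 and Mrpl42; background 1.78%) and 2 at an adjusted p under 0.1 (Mrpl13 and Mrpl42; background 1.39%), and 0 were called in the other alternatives, in which the smallest adjusted p ranged from 0.0618 to 0.237. With 1 array left out, 17 to 27 members lay wholly higher and 3 to 7 wholly lower, where the background of 2 against 3 arrays was 14.7% to 22.5% and 14.1% to 18.5%. Mrpl10 turned to −0.026 with array weights and −0.041 without knockout-labelled replicate 3. Mrps18a turned to −0.029 with array weights and, with 1 array left out, ranged from −0.0020 without wild-type replicate 3 to 0.297 without wild-type replicate 2. With 1 array left out, Mrps18b ranged from 0.019 without wild-type replicate 3 to 0.220 without wild-type replicate 2, and Mrpl11 from 0.0069 without wild-type replicate 1 to 0.129 without wild-type replicate 2.

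The replicate numbers did not pair the arrays: deviations from the group means correlated at −0.11, −0.02 and −0.28 between arrays of the same number. With the replicate block 0 members were called, the subunit medians of 0.19 and 0.13 could not change in this balanced design, and all calls over the arrays went from 313 to 68.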
